A study of Mus musculus with 17 samples.

Results

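The 36 genes described here code for transcription factors, other than Hox proteins, that pattern the midbrain, hindbrain and spinal cord or mark neurons born there. They were taken from a list of gene symbols that was chosen with earlier results of these data known. All 36 were found among the 41015 annotated mouse genes to which transcript counts were summed. By role they were placed in 4 groups: 9 genes of the midbrain and of the isthmus between midbrain and hindbrain, 8 genes of dorsal hindbrain and cord neurons, 9 genes of ventral hindbrain and cord neurons, and 10 genes of the broader Ebf, Irx, Onecut and Sall families. The counts came from brain RNA of mice on a C57BL/6 background, in 6 libraries from mice that overexpress HAR1A, a human long noncoding RNA gene, and in 11 libraries from normal control mice. Neither the construct and promoter of the transgene, nor the brain region, the age, the sex, or whether libraries are from different animals is given in the sources used here. The p-values therefore measure the spread between libraries, which may be in part technical. Libraries are called transgene 1 to 6 and control 1 to 11, in the order of deposition.

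Patterning factors of this kind work in a coordinate system. Signals from the isthmus and from the dorsal and ventral edges of the neural tube switch on combinations of homeodomain, paired box and zinc finger factors, and each combination fixes which neurons a band of progenitors gives rise to. Many of the same factors stay on after birth in the nuclei and cerebellar cells that arose from their band, so in a mature brain their RNA marks brainstem, cerebellum or cord more than forebrain.

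Libraries held 17067407 to 22642441 counts assigned to features. The 6 transgene libraries and controls 7, 8 and 11 carry the label of lane 4, controls 1, 2, 3, 5, 9 and 10 that of lane 8, control 4 that of lane 2, and control 6 that of lane 6 on another flow cell. HAR1A itself was not measured here, and so the grouping rests on the labels alone. All 8 defining brain genes that were looked up, such as Snap25 and Gfap, were present, with summed levels of 5719 to 10588 CPM (counts relative to the library total, scaled with the TMM method) in controls and 6854 to 8543 CPM in transgene libraries. Several libraries stood apart from their group. Control 7 had a summed level of 8 pituitary markers of 1129 CPM, against at most 2.9 in any other control, and of 9 cerebellar granule cell markers of 112 CPM, against 915 to 2765 in the other controls. Control 3 had 279 CPM summed over 12 telencephalic transcription factors, more than the 148 CPM or less of the other controls. Transgene 3 had 474 CPM of granule cell markers, against 75.5 to 141 in the other transgene libraries.

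Most of the 36 patterning factors that could be tested had less RNA in the transgene libraries, and none was called higher. Since the 36 were chosen with earlier results of these data known, the counts below describe them and are no independent test. Of the 36 genes, 31 passed the filter on low counts (about 0.498 CPM in at least 6 libraries). Among these 31, edgeR's quasi-likelihood test with Benjamini-Hochberg adjustment called 23 lower and 0 higher at an adjusted p under 0.05, and 8 were not called. Over all 19136 features tested, 47.4% were called, 24.4% as lower and 23.0% as higher. The median log2 fold change was -3.26 over the 31 genes and -0.05 over all features. In 17 of the 36 genes every control library lay above every transgene library, which held for 5.4% of the features tested, and in 0 genes did every transgene library lie above every control, which held for 9.46% of features. At an unadjusted p under 0.05, 25 of the 31 genes and 53.4% of features passed. In bulk RNA, fewer cells of a type and less RNA per cell cannot be told apart. The brain region is not given either, so a difference between the groups in the region sampled cannot be told apart from these.

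The filter itself bears on these counts. Of the 31 tested genes, 7 had no transgene library above the cutoff and passed through the controls alone, so a difference was built into their passing: Pax8, Pax3, Phox2a, Evx1, Evx2, Lhx4 and Ebf3. Only En2, Barhl2, Gata2, Irx1 and Sall3 had all 6 transgene libraries above it, and 3 of these 5 were called lower. Since the filter asks for 6 libraries, the other 26 tested genes, these 7 included, could not pass without controls. Of these 26 genes, 20 were called lower. The count of calls, the median and the non-overlaps among tested genes thus describe genes that the filter chose in part by their control levels. The 5 genes that did not pass were Dmbx1, Lhx3, Isl2, Irx3 and Onecut2. With no filter all 36 genes were tested and 26 were called lower, against 12.4% of 36207 features. The additional calls were Lhx3 (log2 fold change -2.99, adjusted p = 0.0437), Irx3 (-2.59, adjusted p = 0.00815) and Isl2 (-2.84, adjusted p = 0.00145).

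**Figure D1:**
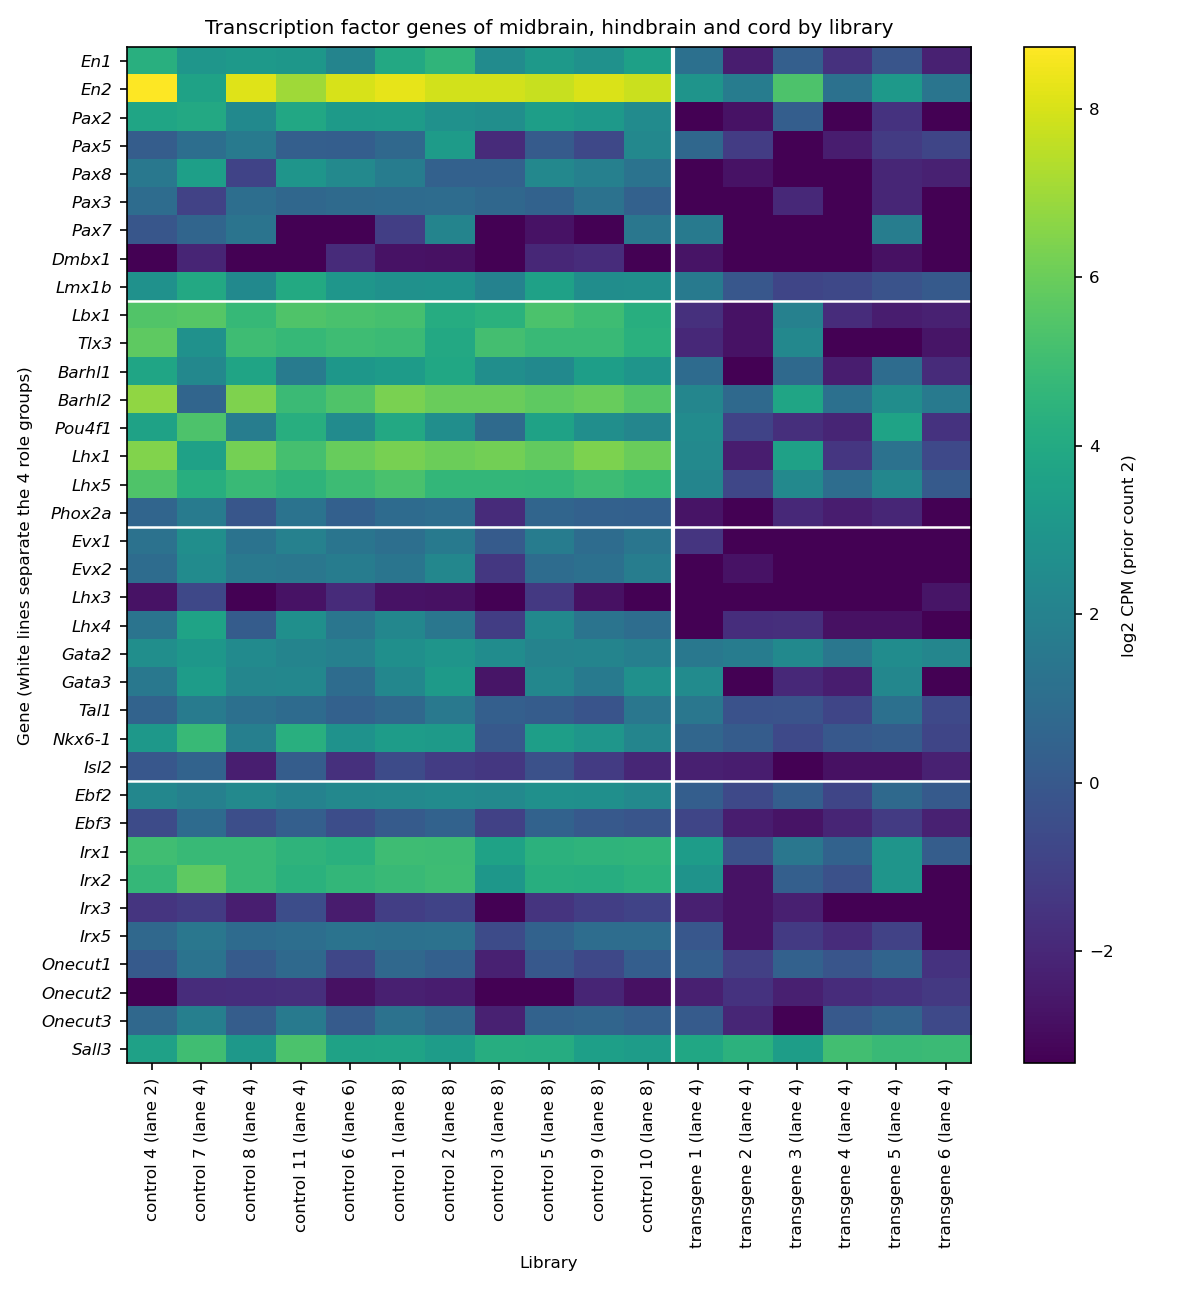
Heat map of log2 CPM (colour scale, prior count of 2) for the 36 genes (rows, ordered by role, with white lines between the 4 groups) in the 17 libraries (columns, controls ordered by lane, then transgene). Most rows darken at the white line between the 11 control and 6 transgene columns, while Gata2, Onecut1 and Sall3 do not, and control 7 and control 3 differ from the other controls in many rows.

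Since 23 of these genes were called in the same direction, the sequence just upstream of the start sites was looked at, for called and uncalled genes alike. RefSeq's promoter table (GRCm38.p6) held 26 of the 36 genes, and the 250 bases before the start were read 5' to 3' on the gene's strand. Only 15 of these 26 RefSeq starts lay at the start of the gene in the annotation used for the counts. The farthest were those of Gata3 (11434 bases away), Lhx4 (9657) and Isl2 (2477). The windows of the 26 genes were rich in CpG, with a median of 19 CpG and 65.2% G and C, against 6 CpG and 52.4% over all 32851 windows of that length. Searched on both strands, the GC box GGGCGG lay in 17 of the 26 windows and in 32.7% of all windows. The TATA box TATAAA lay in 2 of 26 (Evx2 and Lhx3) and in 12.4% of all, the GATA site AGATAA in 1 (Tal1) and in 9.99%, and the E box CANNTG in 10 and in 66.2%. The homeodomain core TAATTA was in none of the 26 windows and in 4.84% of all. A match is a run of letters and not a shown binding site.
The 4 windows printed below are those of Evx2, which had the lowest fold change, of Barhl2 and Pou4f1, which moved in opposite directions in control 7, and of Gata2, which was not called. Capitals mark GC boxes and TATA boxes on either strand.
Evx2, chr2:74659558-74659807, minus strand: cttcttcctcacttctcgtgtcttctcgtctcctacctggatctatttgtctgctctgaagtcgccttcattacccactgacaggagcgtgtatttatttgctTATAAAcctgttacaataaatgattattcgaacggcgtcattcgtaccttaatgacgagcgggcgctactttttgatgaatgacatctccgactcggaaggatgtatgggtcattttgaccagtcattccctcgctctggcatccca
Barhl2, chr5:106458167-106458416, minus strand: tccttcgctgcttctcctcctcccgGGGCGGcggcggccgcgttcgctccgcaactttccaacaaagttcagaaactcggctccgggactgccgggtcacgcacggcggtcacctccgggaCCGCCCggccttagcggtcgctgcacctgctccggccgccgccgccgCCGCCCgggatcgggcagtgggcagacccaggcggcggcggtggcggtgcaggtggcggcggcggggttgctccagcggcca
Pou4f1, chr14:104468000-104468249, minus strand: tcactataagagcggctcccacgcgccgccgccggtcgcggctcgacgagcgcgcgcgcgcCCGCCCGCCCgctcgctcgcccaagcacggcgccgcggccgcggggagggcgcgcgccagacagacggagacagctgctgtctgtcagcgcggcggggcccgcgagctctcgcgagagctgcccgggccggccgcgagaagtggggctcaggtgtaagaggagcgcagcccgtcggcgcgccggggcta
Gata2, chr6:88193641-88193890, plus strand: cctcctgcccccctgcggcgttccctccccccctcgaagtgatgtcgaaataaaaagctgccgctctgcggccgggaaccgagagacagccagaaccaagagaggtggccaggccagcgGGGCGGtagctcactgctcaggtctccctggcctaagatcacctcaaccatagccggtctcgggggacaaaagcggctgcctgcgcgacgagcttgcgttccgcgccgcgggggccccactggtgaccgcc
Evx2 had 1 TATA box, no GC box and 14 CpG. Barhl2 had 3 GC boxes and 36 CpG, and Pou4f1 had 2 GC boxes that share 2 bases, and 47 CpG. Gata2, which did not pass the test, also had 1 GC box and 22 CpG.

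The engrailed genes are homeodomain repressors that hold midbrain and cerebellar identity. Of the 9 isthmus and midbrain genes 8 were tested and 7 fell, beside 24.4% of all features called lower. En2 (mm10 chromosome 5, 28165694 to 28172166) had 12.3, 243 and 425 CPM as the lowest, median and highest control and 2.18, 5.39 and 41.5 CPM in the transgene libraries. The groups overlapped only because control 7 held 12.3 CPM, below the 41.5 CPM of transgene 3. The other 10 controls held 127 CPM or more. En2's log2 fold change was -4.43 ± 0.72 (SE, adjusted p = 6.08e-05), and -5.58 without transgene 3. En1 (chromosome 1, 120602418 to 120607992) ran from 4.2 over a median of 8.7 to 23.3 CPM in controls and from 0.0975 over 0.515 to 2.07 CPM in transgene libraries, with no overlap, and fell by 3.86 ± 0.54 on the log2 scale (adjusted p = 1.31e-05). Control 7, which was lowest for En2, held 7.95 CPM of En1, close to the control median.

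Pax2, Pax5 and Pax8 are the closely related paired box factors switched on at the isthmus, and Pax2 and Pax8 later mark inhibitory neurons of cerebellum and cord. Pax2 (chromosome 19, 44756045 to 44837871) had 5.16, 9.32 and 15.3 CPM as lowest, median and highest control, and 0.0, 0.0244 and 1.11 CPM in transgene libraries. It had no read in transgene 1, 4 and 6, and its log2 fold change was -5.35 ± 0.59 (adjusted p = 1.15e-06). Transgene 3 held the 1.11 CPM, and without it the log2 fold change was -7.16. Pax8 had 0.442, 3.19 and 11 CPM in controls and at most 0.141 CPM in a transgene library, which is 895 counts over the 11 controls against 6 counts over the 6 transgene libraries. Its log2 fold change was -6.11 ± 0.84 (adjusted p = 1.14e-05). Pax5, which also works in B cells, was the least regular of the 3. It ran from 0.175 over 1.14 to 9.66 CPM in controls and from 0.0 over 0.335 to 1.54 CPM in transgene libraries, 4 of which lay above control 3. Pax5 was called over all libraries (-2.36 ± 0.78, adjusted p = 0.0179; -3.22 without transgene 1) and not within lane 4 (-2.17 ± 0.75, adjusted p = 0.0566). Over all libraries it was also not called with limma-voom (-2.56, adjusted p = 0.0539). With the lane as a factor, a fit whose contrast comes from the lane 4 libraries, Pax5 was not called either (-2.15, adjusted p = 0.117). Within lane 4 it was called by DESeq2 (-2.16, adjusted p = 0.0342), by limma-voom (-2.93, adjusted p = 0.019) and without transgene 1 (-3.05, adjusted p = 0.00758), so its call in either comparison rested on the setting. Control 11, whose 6 B cell markers summed to 629.9 CPM against 27.9 to 88.4 in the other controls, held 1.14 CPM of Pax5.

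Lmx1b is a LIM homeodomain factor needed at the isthmus and in serotonin and dopamine neurons. Its control values ran from 3.96 over 6.7 to 16.1 CPM and its transgene values from 0.475 over 0.815 to 2.92 CPM, without overlap. The log2 fold change was -2.97 ± 0.41 (adjusted p = 1.26e-05). Pax3 and Pax7, the dorsal paired box pair, parted. Pax3 had 0.419, 1.66 and 2.21 CPM in controls against at most 0.158 CPM in transgene libraries, with 349 against 6 counts, and fell by 4.78 ± 0.53 on the log2 scale (adjusted p = 1.17e-06). The 6 counts were split between transgene 3 and transgene 5, and its log2 fold change was -5.42 without the first and -5.37 without the second. Pax7 was patchy in both groups. Its counts were 88 in control 2, 55 in control 10, 49 in control 8, 31 in control 7, 16 in control 4, 7 in control 1, 1 in control 5 and 0 in controls 3, 6, 9 and 11. Among the transgene libraries Pax7 had 55 counts in transgene 1, 71 in transgene 5 and 0 in the other 4, and its log2 fold change was -0.05 ± 1.09 (adjusted p = 0.974). Dmbx1, a midbrain and hindbrain homeodomain factor, was near the detection limit, with 16 counts over 11 controls and 2 over 6 transgene libraries. The ratio of its shares of counts, control over transgene, was 4.22, with an exact 95% interval of 0.992 to 37.8 that covers counting error only, as do all such intervals here.

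In the dorsal hindbrain and cord group, 7 of 8 genes fell, beside 24.4% of all features called lower. Lbx1 and Tlx3 are opposing selectors: Lbx1 sets dorsal inhibitory and somatosensory relay fates, and Tlx3 excitatory ones. Lbx1 (chromosome 19, 45232684 to 45235812) had 17.6, 35.9 and 47.5 CPM as lowest, median and highest control and 0.0488, 0.152 and 3.8 CPM in transgene libraries. Tlx3 (chromosome 11, 33200752 to 33203589) had 6.7, 28.5 and 52.6 CPM in controls and 0.0, 0.054 and 4.75 CPM in transgene libraries. Neither gene overlapped between groups, and in both transgene 3 alone accounted for the highest value while the other 5 transgene libraries held at most 0.213 CPM of Lbx1 and 0.16 CPM of Tlx3. The log2 fold changes were -5.49 ± 0.64 for Lbx1 (adjusted p = 1.92e-06) and -5.07 ± 0.79 for Tlx3 (adjusted p = 4.19e-05). Without transgene 3 they were -7.89 for Lbx1 and -8.92 for Tlx3.

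Barhl1 and Barhl2, Bar-class homeodomain factors, mark excitatory neurons of the rhombic lip and dorsal cord, and Barhl1 is kept in cerebellar granule cells. Barhl2 (chromosome 5, 106452523 to 106458166) had 1.44, 61.6 and 105 CPM in controls and 1.61, 3.74 and 13.4 CPM in transgene libraries. Control 7 held the 1.44 CPM and lay below all 6 transgene libraries, while the next control held 29.6 CPM. Barhl2 fell by 3.49 ± 0.61 on the log2 scale (adjusted p = 0.00013). Barhl1 had 3.15, 8.23 and 14.2 CPM in controls and 0.0, 0.907 and 1.79 CPM in transgene libraries, with no overlap, and fell by 3.26 ± 0.56 (adjusted p = 0.000107). In Barhl1 control 7 held 4.79 CPM, within the range of the other controls.

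Lhx1 and Lhx5 are LIM homeodomain paralogs of Purkinje cells and of dorsal inhibitory neurons. Lhx1 had 11.9, 64.2 and 86.6 CPM in controls and 0.0975, 1.37 and 11.8 CPM in transgene libraries. The groups nearly met: control 7 held 11.9 CPM and transgene 3 held 11.8 CPM. Lhx1 fell by 4.23 ± 0.68 on the log2 scale (adjusted p = 5.21e-05), and its log2 fold change was -5.25 without transgene 3. Lhx5 was among the steadiest of the 36 genes, with 19.0, 25.3 and 41.8 CPM in controls and 0.488, 3.13 and 4.96 CPM in transgene libraries, and fell by 3.29 ± 0.37 (adjusted p = 1.26e-06). Phox2a, the homeodomain factor of noradrenergic and cranial motor neurons, had 0.175, 1.44 and 3.12 CPM in controls and at most 0.158 CPM in transgene libraries. It had 341 against 9 counts and a log2 fold change of -4.21 ± 0.57 (adjusted p = 9.87e-06).

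Pou4f1 (Brn3a), a POU factor of sensory ganglia, habenula and red nucleus, was the dorsal gene that did not pass. It had 1.69, 6.08 and 40.5 CPM as lowest, median and highest control and 0.139, 0.338 and 12.7 CPM in transgene libraries. Transgene 5 held 12.7 CPM and transgene 1 held 5.53 CPM, inside the control range, while the other 4 held at most 0.439 CPM. The log2 fold change was -1.83 ± 0.83 (adjusted p = 0.0765). Without transgene 5 it was -3.11 (adjusted p = 0.00737), and limma-voom gave -3.26 (adjusted p = 0.0179). The same 2 transgene libraries had the highest sums of 10 thalamus, habenula and midbrain markers, 388 CPM in transgene 1 and 234 CPM in transgene 5, against 121 to 137 CPM in the other 4, and the part of these markers in the Pou4f1 values was not tested.

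Of the 9 ventral neuron factors 7 were tested, 4 fell and 3 did not pass, beside 24.4% of all features called lower. Evx1 and Evx2 are homeodomain factors of the commissural V0 neurons. Evx2 (chromosome 2, 74652991 to 74659557) had 0.291, 2.68 and 5.44 CPM in controls and a single read in all 6 transgene libraries, in transgene 2. That is 636 counts against 1, a ratio of count shares of 335 with an exact 95% interval of 60.0 to 13269.5. Evx2 was called lower (adjusted p = 4.25e-07), and its fitted log2 fold change of -7.57 ± 0.75 depends on the prior count. Evx1 had 0.99, 2.45 and 6.14 CPM in controls, and 5 counts in transgene 1 with 0 in the other 5 transgene libraries. Its log2 fold change was -5.84 ± 0.63 (adjusted p = 9.19e-07), a fitted value that rests on the 5 counts of transgene 1.

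Lhx4, a LIM homeodomain factor of early motor neurons, had 0.349, 2.58 and 12.6 CPM in controls and at most 0.211 CPM in transgene libraries, and fell by 5.40 ± 0.81 on the log2 scale (adjusted p = 2.85e-05). Its paralog Lhx3 had 26 counts over the controls, 11 of them in control 7, and 1 count over the transgene libraries. The ratio of shares for Lhx3 was 13.7, with an interval of 2.25 to 562. Both Lhx3 and Lhx4 also act in the pituitary, and the control with pituitary markers, control 7, held the highest value of both. The part of these markers in the levels was not tested. Lhx4 remained lower over all libraries without control 7, with a log2 fold change between -5.82 and -5.0 when any library was left out. Isl2, a motor neuron LIM factor, had 120 against 8 counts, with control medians of 0.333 CPM and transgene medians of 0.0723 CPM. Nkx6-1, a ventral homeodomain factor of motor and V2 neuron progenitors, had 0.931, 8.52 and 27.3 CPM in controls and 0.473, 0.952 and 1.49 CPM in transgene libraries. The only overlap was control 3, which held 0.931 CPM, and Nkx6-1 fell by 3.44 ± 0.56 (adjusted p = 5.85e-05).

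Gata2, Gata3 and Tal1, which together set the inhibitory fate of V2b neurons and of midbrain and brainstem nuclei, did not pass. Gata2 (chromosome 6, 88193891 to 88207032) had 3.56, 5.26 and 8.14 CPM in controls and 2.64, 3.88 and 5.64 CPM in transgene libraries, a log2 fold change of -0.43 ± 0.21 (adjusted p = 0.108). With scaling by library size alone it was called (-0.54, adjusted p = 0.0332). Tal1 had 0.783, 1.57 and 3.12 CPM in controls and 0.464, 0.735 and 2.61 CPM in transgene libraries (-0.57 ± 0.38, adjusted p = 0.229). Gata3 was all or none in the transgene group: transgene 1 held 5.58 CPM and transgene 5 held 4.7 CPM, both near the control median of 4.59 CPM, and the other 4 held at most 0.158 CPM. Among controls Gata3 ran from 0.0582 CPM in control 3 to 9.95 CPM in control 7, and its log2 fold change was -1.42 ± 0.82 (adjusted p = 0.167). Gata2 and Tal1 are also factors of blood cell precursors. The 7 red cell markers summed to 473 to 5222 CPM in controls and 395 to 1147 CPM in transgene libraries, and their part in the levels was not tested.

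Of the 10 genes of the broader families 8 were tested and 5 fell, beside 24.4% of all features called lower. The Iroquois genes Irx1 and Irx2, homeodomain factors that lie 665.1 kb apart on chromosome 13 (Irx1 at 71957921 to 71963723, Irx2 at 72628820 to 72634198), were at similar mean levels in controls per kilobase of exon (10.4 and 9.62 CPM). Irx1 had 12.3, 23.5 and 32.6 CPM as lowest, median and highest control, and 0.683, 1.97 and 10.0 CPM in transgene libraries. Irx2 had 8.15, 25.2 and 53.3 CPM in controls and 0.0, 0.929 and 7.61 CPM in transgene libraries. Neither overlapped between groups. In both genes transgene 1 and transgene 5 were the 2 highest, with 10.0 and 7.57 CPM of Irx1 and 7.23 and 7.61 CPM of Irx2, and no other transgene library held over 2.64 CPM of either. The log2 fold changes were -2.67 ± 0.45 for Irx1 (adjusted p = 9.4e-05) and -3.17 ± 0.67 for Irx2 (adjusted p = 0.000736; -3.76 without transgene 5). The second Iroquois cluster, on chromosome 8, was lower in level (0.584 CPM per kilobase for Irx5). Irx5 had 0.582, 1.9 and 2.6 CPM in controls and 0.0, 0.251 and 0.851 CPM in transgene libraries, with transgene 1 above control 3 (-2.56 ± 0.45, adjusted p = 0.000128), and its neighbour Irx3 had 66 against 5 counts.

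Ebf2 and Ebf3, helix-loop-helix factors of migrating and differentiating neurons, both fell. Ebf2 was the most even of the 36 genes among controls, with 3.72, 4.99 and 6.51 CPM, against 0.464, 1.03 and 1.65 CPM in transgene libraries. Its log2 fold change of -2.37 ± 0.22 had the smallest adjusted p of the 36 genes (2.56e-07). Ebf3 had 0.408, 0.921 and 1.72 CPM in controls and 0.0528, 0.129 and 0.479 CPM in transgene libraries, with an overlap of transgene 1 and control 3, and fell by 2.19 ± 0.40 (adjusted p = 0.00022).

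Onecut genes, cut-homeodomain factors of motor neurons, V1 neurons and the retina, were not called. Onecut1 had 0.116, 0.983 and 2.28 CPM in controls and 0.237, 0.952 and 1.36 CPM in transgene libraries (-0.32 ± 0.43, adjusted p = 0.567). Onecut3 had 0.116, 1.43 and 3.58 CPM in controls and 0.0, 0.73 and 1.32 CPM in transgene libraries (-1.30 ± 0.55, adjusted p = 0.0585). Onecut3 was close to the threshold: it was called with DESeq2 (-1.31, adjusted p = 0.032), with library-size scaling (-1.39, adjusted p = 0.0414), with the lane factor (-1.93, adjusted p = 0.0446), without transgene 5 (-1.60, adjusted p = 0.0384) and without control 3 (-1.42, adjusted p = 0.0204), the lowest control for both genes. Onecut2 had 21 counts over the controls and 23 over the transgene libraries, which is a ratio of shares of 0.482 (interval 0.253 to 0.91). Sall3, a zinc finger factor of the spalt family, was the only tested gene with a positive estimate. It had 8.55, 12.4 and 40.3 CPM in controls and 10.5, 25 and 33.8 CPM in transgene libraries, and its log2 fold change was 0.46 ± 0.33 (adjusted p = 0.27). Its direction was not stable, since within lane 4 it was -0.25 ± 0.45 (adjusted p = 0.727). The fit with the lane as a factor gave -0.24 (adjusted p = 0.702). That fit takes its contrast from the same lane 4 libraries and is no separate result.

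**Figure D2:**
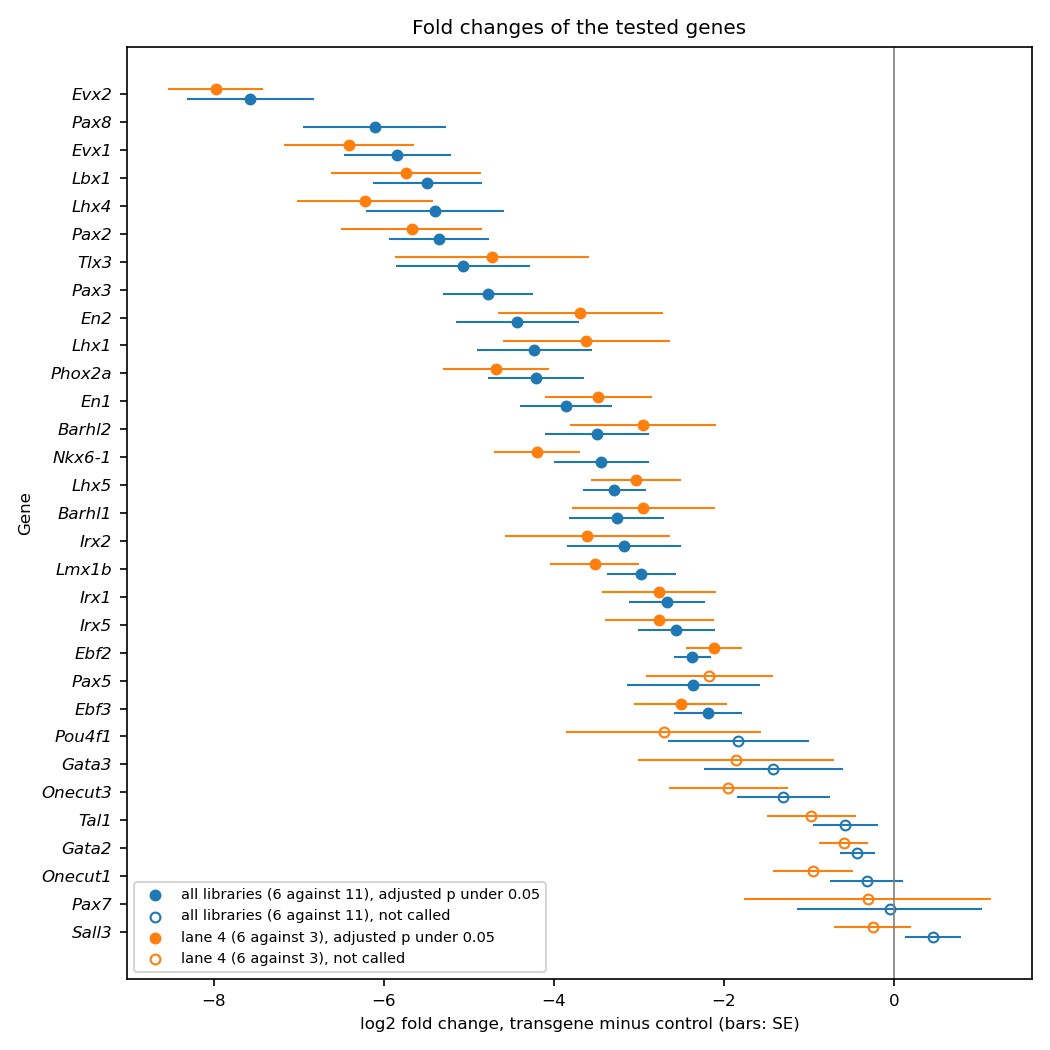
Log2 fold change, transgene minus control, with its standard error (horizontal axis) for the 31 tested genes (rows, ordered by the fold change over all libraries). Blue stands for all libraries and orange for lane 4, filled points have an adjusted p under 0.05, and the 23 filled blue points all lie left of 0.

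All transgene libraries were run on lane 4, so the comparison was repeated with the 3 controls of that lane. It shares its libraries with the first comparison and is not a separate replication. Within lane 4, 29 of the 36 genes were tested, 20 were called lower and 0 higher, against 25.6% of 19261 features called, 12.0% as lower and 13.6% as higher. All 20 were also called over all libraries. They include Phox2a, Evx1, Evx2, Lhx4 and Ebf3, which had no transgene library above the filter's cutoff and so were tested through the controls alone. Within this lane the filter asks for 3 libraries, the size of the smaller group. All 3 controls of these genes thus had to exceed a cutoff that every transgene library missed. Their lack of overlap, counted below, was fixed by the filter. Pax2, Lbx1, Tlx3 and Irx5, with 1 transgene library above the cutoff, also could not be tested without controls. The median log2 fold change was -2.95 over the 29 genes and -0.04 over all features. Every lane 4 control lay above every transgene library in 20 of the 36 genes, 18 of them tested, against 10.6% of features, and the reverse order held in 0 genes and in 14.7% of features. An unadjusted p under 0.05 was reached by 23 of the 29 genes and by 37.7% of features. With no filter, 24 genes were called lower in lane 4, against 6.04% of 34688 features.

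Values in the 3 lane 4 controls were far apart for several genes. En2 had 12.3 CPM in control 7, 279 in control 8 and 127 in control 11, and a log2 fold change of -3.69 ± 0.97 (adjusted p = 0.018). Barhl2 had 1.44, 84.7 and 29.6 CPM in the same controls (-2.95 ± 0.86, adjusted p = 0.0289), and Lhx1 had 11.9, 72.9 and 36.1 CPM (-3.62 ± 0.98, adjusted p = 0.0199). Control 8 carried these 3 calls and that of Barhl1: without it the log2 fold change was -2.67 for En2 (adjusted p = 0.0789), -1.62 for Barhl2 (0.209), -2.87 for Lhx1 (0.074) and -2.14 for Barhl1 (0.12), each over 1.5 times smaller and in the same direction. Barhl2 lost its call on leaving out 7 of the 9 libraries in turn. Without control 7, Irx2 was no longer called (-3.10, adjusted p = 0.059).
Lbx1, Lhx5 and En1 were closer together in the lane 4 controls. Lbx1 had 47.5, 26.9 and 42.3 CPM in controls 7, 8 and 11 (-5.74 ± 0.88, adjusted p = 0.00107), and Lhx5 had 19.0, 28.7 and 22.7 CPM (-3.03 ± 0.53, adjusted p = 0.00216). En1 had 7.95, 8.7 and 8.1 CPM (-3.48 ± 0.63, adjusted p = 0.00274). Nkx6-1, whose groups overlapped over all libraries, had 27.3, 3.59 and 19.1 CPM in the lane 4 controls, all above the 1.49 CPM of the highest transgene library (-4.20 ± 0.51, adjusted p = 0.000312). Among ventral genes, Evx1 was at -6.41 ± 0.76 (adjusted p = 0.000255) and Lhx4 at -6.22 ± 0.80 (adjusted p = 0.000396).
The remaining lane 4 calls were Pax2 (-5.67 ± 0.83), Lmx1b (-3.52 ± 0.52), Tlx3 (-4.73 ± 1.14), Barhl1 (-2.95 ± 0.84), Phox2a (-4.68 ± 0.62), Evx2 (-7.98 ± 0.56), Ebf2 (-2.12 ± 0.33), Ebf3 (-2.51 ± 0.55), Irx1 (-2.76 ± 0.67), Irx2 (-3.61 ± 0.97) and Irx5 (-2.76 ± 0.64). Of the genes not called, Pou4f1 stood at -2.71 ± 1.15 (adjusted p = 0.108), Gata3 at -1.86 ± 1.15 (adjusted p = 0.27) and Onecut3 at -1.95 ± 0.70 (adjusted p = 0.0644). Other tools called some of these within lane 4: limma-voom Pou4f1 (-4.04, adjusted p = 0.0414) and Gata3 (-4.43, adjusted p = 0.0174), and DESeq2 Onecut3 (-1.97, adjusted p = 0.0364). Leaving out 1 transgene library moved other lane 4 values by over 1.5 times with the call kept: without transgene 3, En2 (-4.85), Pax2 (-7.49), Lbx1 (-8.16), Tlx3 (-8.59) and Lhx1 (-4.66); without transgene 1, En1 (-4.09), Lmx1b (-4.11) and Irx5 (-3.36); and without transgene 5, Irx2 (-4.24). Without control 7, Lhx4 was at -5.34 and kept its call.

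Levels can be compared between genes once divided by the length of their exons. On that scale (mean CPM per kilobase of merged exons), En2 was highest in controls with 66.5, ahead of Barhl2 with 24.6, Tlx3 with 18.2, Lhx1 with 15.9 and Lbx1 with 13.3. Lhx5, Irx1 and Irx2 followed at 10.5, 10.4 and 9.62, closer to each other than the spread of any of them between controls. In the transgene libraries the order changed, and Sall3 (3.24), En2 (3.09), Barhl2 (2.19) and Irx1 (1.63) were the highest levels. At the low end in controls were Onecut2 with 0.0057, Dmbx1 with 0.0116 and Lhx3 with 0.0464. For genes with several overlapping transcripts these levels are too low, since reads that fit more than 1 feature were not counted.

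The controls differed among themselves in these genes more than in most features. The biological coefficient of variation, edgeR's estimate of the relative spread beyond counting error, had a median of 0.421 over the 31 tested genes and 0.216 over all 19136 features in a fit of the 11 controls. It was above the median of all features in 30 of the 31 genes, and 11.1% of features were above the median of the 31. Features were not matched on level for this. Ebf2 (0.188), Lhx5 (0.231), Irx1 (0.254) and Gata2 (0.273) varied least. Pax7 (1.65), Pax5 (0.846), Gata3 (0.737), Pou4f1 (0.734), Lhx4 (0.727) and Pax8 (0.7) varied most.

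Control 7 and control 3 stood at the edges of this spread in different genes. Control 7 was the highest control for 17 of the 31 genes and the lowest for 7. It was highest for all 7 tested ventral genes. It held 40.5 CPM of Pou4f1, 6.68 times the median of the other 10 controls, 12.6 CPM of Lhx4 (5.06 times), 11 CPM of Pax8 (3.73 times) and 27.3 CPM of Nkx6-1 (3.29 times). Its lowest genes were En2, Pax3, Tlx3, Barhl2, Lhx1, Lhx5 and Ebf2. Barhl2 was at 0.0233 of the median of the other controls, En2 at 0.0492, Lhx1 at 0.174 and Tlx3 at 0.231. In control 7 the sums of granule cell markers (112 CPM) and of 8 Purkinje cell markers (212 CPM, against 1191 to 4074 in the other controls) were also the lowest of the controls, and the sum of 23 Hox genes (346 CPM) was the highest but for control 11 (385 CPM). The part of these markers in the levels was not tested.
Control 3 was the lowest control for 15 of the 31 genes and the highest for none, and it held at most 0.5 times the median of the other controls in 16. It had 1 count of Gata3, 5 of Evx2, 3 of Phox2a and 6 of Lhx4. In the same library En2 (241 CPM), Lhx1 (72.1 CPM), Barhl2 (63.0 CPM) and Tlx3 (35.2 CPM) were near or above their control medians. Control 3 had the lowest choroid plexus marker sum of the controls, 73.2 CPM, beside its telencephalic sum of 279 CPM. The part of these markers in the levels was not tested.
Without controls 3 and 7, 24 genes were called lower over all libraries, the 23 and Onecut3 (-1.23, adjusted p = 0.0305). This alternative was added after the data were seen.

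**Figure D3:**
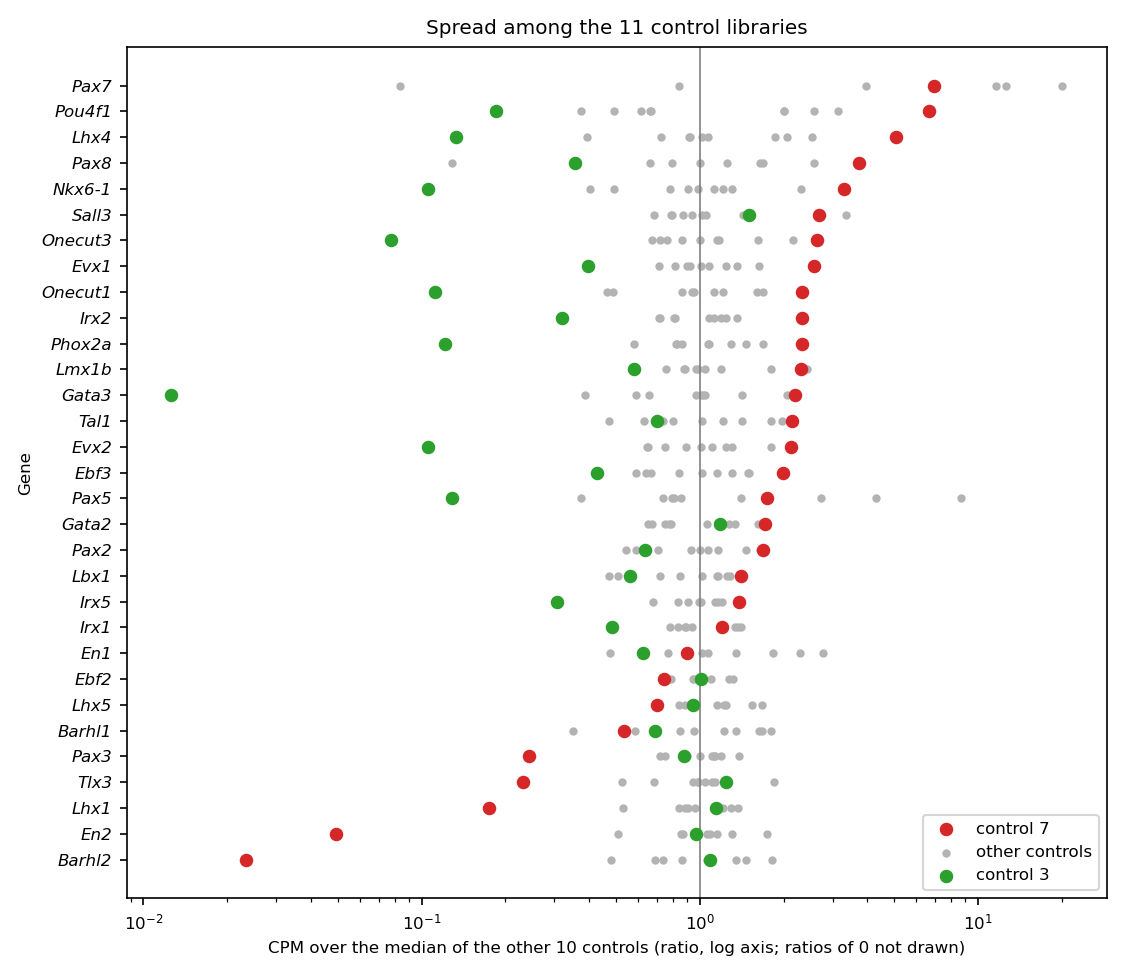
CPM in each control over the median of the other 10 controls (horizontal log axis) for the 31 tested genes (rows, ordered by control 7). Control 7 (red) runs from 0.0233 for Barhl2 to above 6 for Pou4f1 and Pax7, control 3 (green) is low in a largely different set, and the other controls (grey) mostly stay within a few-fold of 1.

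Among the transgene libraries the highest values of these genes lay mostly in 3 of 6. Transgene 1 was highest for 10 of the 31 genes, among them En1, Lmx1b, Gata3, Nkx6-1 and Irx1. Transgene 5 was highest for 9, among them Pax7, Pou4f1, Barhl1 and Irx2. Transgene 3 was highest for 10 others: En2, Pax2, Pax3, Lbx1, Tlx3, Barhl2, Lhx1, Lhx5, Phox2a and Lhx4. Transgene 3 also had the highest sums of granule cell markers (474 CPM) and of Purkinje cell markers (873 CPM, against 242 to 358 in the other transgene libraries), and their part in its levels was not tested. Summed over the 36 genes, the transgene libraries held 36.5 to 109 CPM and the controls 403 to 932 CPM, so even the highest transgene library lay below the lowest control.

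**Figure D4:**
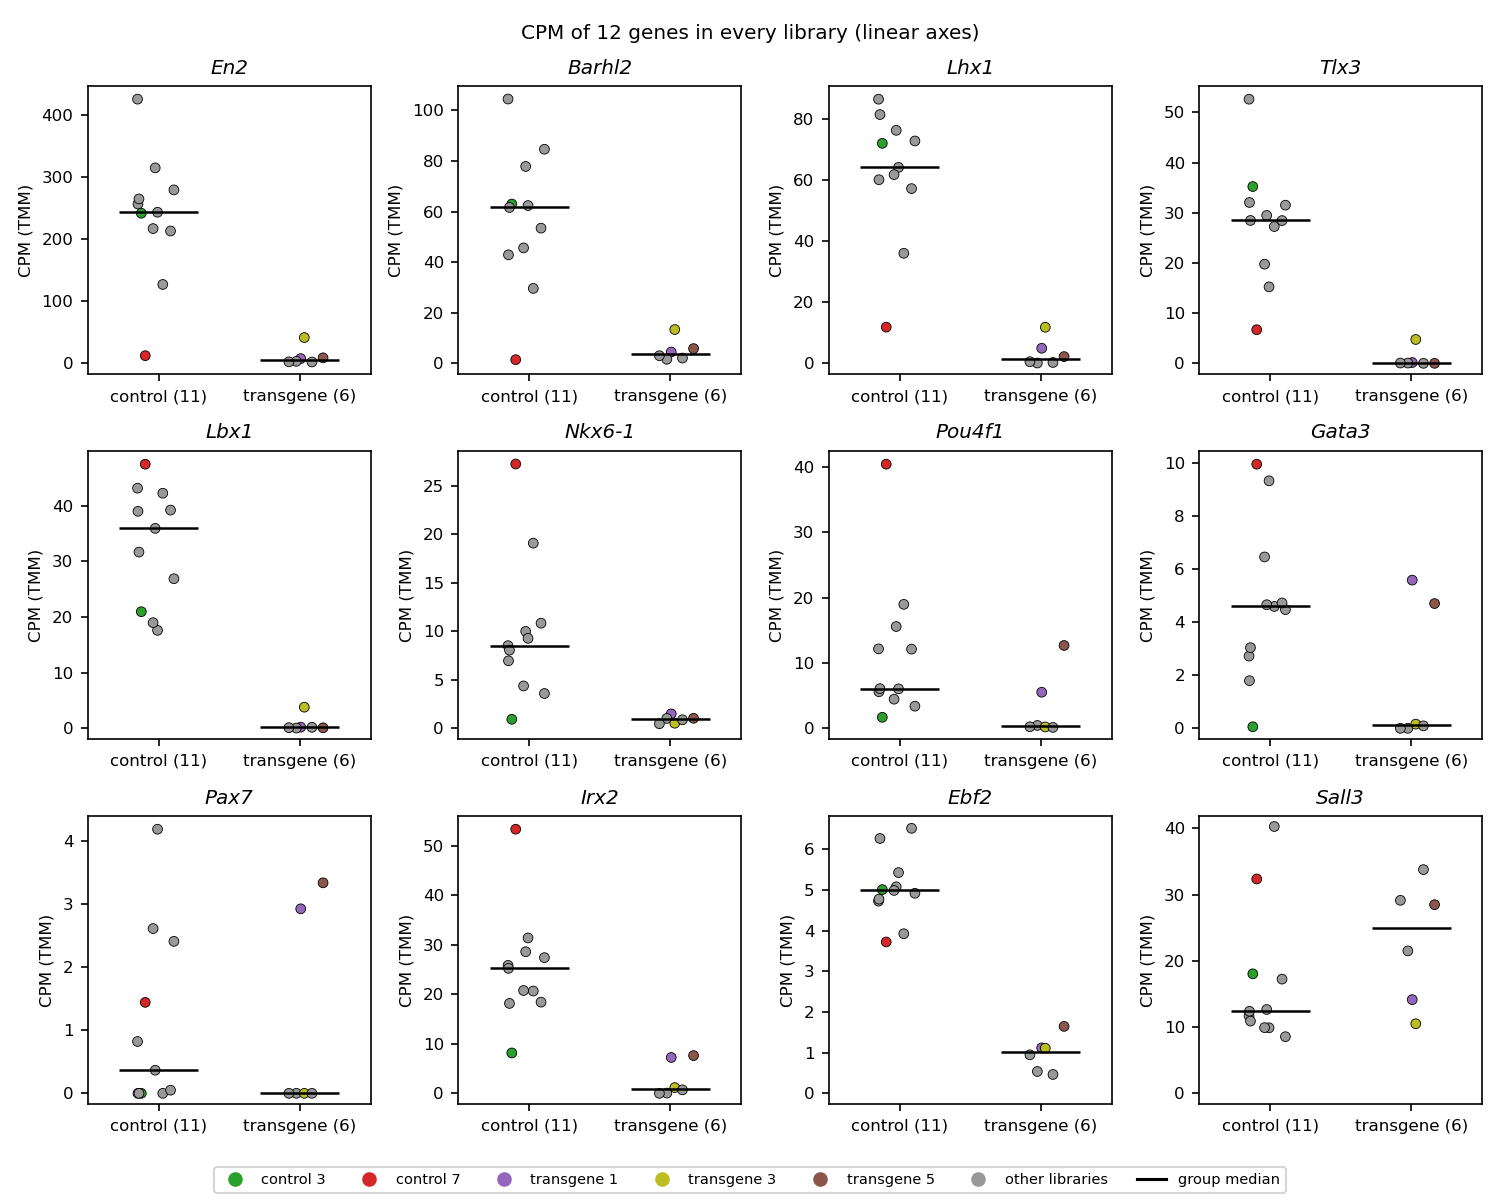
CPM (linear axes) of 12 of the 36 genes in every library, with the 11 controls on the left, the 6 transgene libraries on the right and bars at the group medians. Control 7 (red) lies at the bottom of the controls for En2, Barhl2, Lhx1 and Tlx3 and at the top for Nkx6-1, Pou4f1, Gata3 and Irx2, and transgene 1 and 5 (purple and brown) reach control levels for Gata3 and Pax7.

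Part of the spread among controls could go with the lane, and the 6 controls of lane 8 were compared with the 3 of lane 4. Of the 36 genes 32 were tested and 0 were called, with a smallest adjusted p of 0.581 by edgeR and 0 calls by DESeq2. Over 19384 features 0.0% were called by edgeR, and 7.96% had an unadjusted p under 0.05. Among the 32 genes 3 had such a p, in lane 8 minus lane 4: Ebf2 at 0.42 ± 0.17 on the log2 scale (unadjusted p = 0.03), Evx1 at -0.84 ± 0.37 (unadjusted p = 0.0435) and Sall3 at -1.04 ± 0.38 (unadjusted p = 0.0209). For Sall3, controls 7 and 11 of lane 4 held 32.4 and 40.3 CPM, and the lane 8 controls 9.9 to 18 CPM. Without control 8 of lane 4, which held 8.55 CPM, Sall3 was called (-1.46, adjusted p = 0.0485).

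Further transcription factors of the same territories were listed beside the 36, and the difference between the lists was not tested. Of 50 other midbrain, hindbrain and cord factors 30 were tested over all libraries, 14 were lower and 6 higher, with a median log2 fold change of -0.63, beside 24.4% lower and 23.0% higher of all features. Within lane 4, 12 were lower and 2 higher of 32 tested, beside 12.0% and 13.6% of features. The 3 of the 50 with the highest mean CPM over all libraries, a rule that favours genes that did not fall, were Bhlhe22, Sall1 and Nkx6-2. Bhlhe22, a helix-loop-helix factor of dorsal cord and cortex, had medians of 145 CPM in controls and 109 CPM in transgene libraries (-0.15 ± 0.29, adjusted p = 0.694). Sall1, the paralog of Sall3, was higher over all libraries (0.61 ± 0.23, adjusted p = 0.0391) and not within lane 4 (0.00 ± 0.30, adjusted p = 0.998). Nkx6-2, the paralog of Nkx6-1 that is also found in oligodendrocytes, fell by 0.92 ± 0.31 on the log2 scale (adjusted p = 0.0188).
Other genes of the 50 were singled out after their values were seen. Uncx, a homeodomain factor of hindbrain and cord neurons, had medians of 62.6 CPM in controls and 1.66 CPM in transgene libraries and fell by 4.04 ± 0.71 (adjusted p = 0.000126; lane 4 -3.54 ± 1.00, adjusted p = 0.0244). Some paralogs of the 36 genes were also among the 50. Tlx1 had 225 counts over the controls and 0 over the transgene libraries, and Ebf1 fell by 2.67 ± 0.16 (adjusted p = 6.83e-09). By contrast Pou4f2, a paralog of Pou4f1, was not called (-1.16 ± 0.78, adjusted p = 0.236), and Isl1, the paralog of Isl2, was higher (1.76 ± 0.50, adjusted p = 0.00755), though not within lane 4 (0.89 ± 0.63, adjusted p = 0.339).

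Of 9 genes of isthmic signalling 7 were tested, 2 were lower and 2 higher, which is near the 24.4% and 23.0% of all features, and Fgf8 had no read in any library. Cnpy1, an isthmic regulator of FGF signalling, fell by 4.95 ± 1.06 on the log2 scale over all libraries (adjusted p = 0.000825) and was not called within lane 4 (-4.01 ± 1.51, adjusted p = 0.0745). Spry2, an FGF feedback inhibitor, was higher (0.36 ± 0.08, adjusted p = 0.00122), and Il17rd did not pass (0.34 ± 0.15, adjusted p = 0.0795). The remaining calls of this list were Fgf18, lower (-1.42 ± 0.38, adjusted p = 0.0046), and Wnt1, higher (2.88 ± 0.54, adjusted p = 0.000266). Within lane 4 both were called in the same direction (adjusted p = 0.0262 for Fgf18 and 0.00904 for Wnt1). Of 16 transmitter and peptide genes of the neurons these factors specify, 14 were tested, 8 were lower and 2 higher. The most abundant were the inhibitory genes Gad1 (0.19 ± 0.12, adjusted p = 0.202) and Slc32a1 (-0.22 ± 0.12, adjusted p = 0.137), which did not pass, and Gad2, which was higher over all libraries (0.46 ± 0.09, adjusted p = 0.000271) and not called within lane 4 (0.34 ± 0.15, adjusted p = 0.128). Chosen after their values were seen, the glycine transporter gene Slc6a5 had 3038 against 11 counts (adjusted p = 3.97e-07), the serotonin synthesis gene Tph2 fell by 4.47 ± 0.66 (adjusted p = 2.23e-05), and the noradrenaline synthesis gene Dbh by 3.68 ± 0.54 (adjusted p = 2.19e-05). Other genes of the list did not fall. The dopamine transporter gene Slc6a3 was higher over all libraries (2.87 ± 0.86, adjusted p = 0.00984) and not called within lane 4 (3.14 ± 1.52, adjusted p = 0.158). Over all libraries Th (-0.64 ± 0.30, adjusted p = 0.0916) and Chat (-0.75 ± 0.45, adjusted p = 0.182) did not pass.

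Several marker lists of regions differed between the groups, read against the 24.4% of all features called lower and the 23.0% called higher. Of 23 Hox genes 19 were tested and 19 were lower, with sums of 17.2 to 385 CPM in controls and 0.232 to 0.893 CPM in transgene libraries. Of 12 telencephalic transcription factors 11 were tested and 11 were higher, with 9.52 to 279 CPM in controls and 481 to 758 CPM in transgene libraries. All 9 granule cell markers, Barhl1 among them, were lower (112 to 2765 against 75.5 to 474 CPM), and of 8 Purkinje cell markers 7 were lower and 1 higher (212 to 4074 against 242 to 873 CPM). Within lane 4, where 25.6% of features were called, 12 of 12 tested Hox genes were lower, 9 of 11 telencephalic factors were higher, 7 of 9 granule cell markers were lower, and 3 of 8 Purkinje cell markers were lower and 1 higher. In the other lists over all libraries, lower calls were above the 24.4% for endothelial (4 of 6 tested), red cell (3 of 7) and sensory ganglion markers (2 of 4 tested). The same held for the defining brain markers, of which 3 of 8 were lower and 3 higher. Of 8 meningeal fibroblast markers 2 were lower, close to that share, and of 6 tested choroid plexus markers 1. Of 9 tested thalamus, habenula and midbrain markers 1 was lower and 3 were higher, and of 3 tested skeletal muscle markers 1 was higher. None was called of 3 B cell, 3 retina and 1 pituitary marker tested. Within lane 4, where 12.0% of features were called lower, 3 of 6 endothelial, 4 of 7 red cell and 2 of 4 sensory ganglion markers were lower and 0 higher. There, 1 of 3 tested B cell markers was lower and 0 higher, and of 8 defining brain markers 3 were lower and 2 higher. Crx and Nrl of the retina list and Tnnt3 of the muscle list had no read in any library. The part of these lists in the falls of the 36 genes was not tested.

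Some of the counts cannot be assigned to these genes alone. Of the 36 genes, 16 overlap another annotated gene, mostly on the opposite strand, and the strand setting of the counting is not given in the sources used here, so reads of such partners cannot be told apart. Summed over the 11 controls and over the 6 transgene libraries, such partners had counts of their own: Evx1os had 347 against 1, Irx3os 328 against 20, Gm27199 at Lhx5 360 against 34, and Gm43610 within En2 932 against 38. Phox2a overlaps the end of the coding gene Inppl1, which had 1099 against 515 counts. The other 20 genes, among them Lbx1, Tlx3, Barhl2, Lhx1, Evx2 and Nkx6-1, overlap no annotated gene. Pax2 and Lbx1 lie 394.8 kb apart on chromosome 19, Irx3 and Irx5 555.6 kb apart on chromosome 8, and Dmbx1 and Tal1 843.4 kb apart on chromosome 4.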

How the data were processed

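RNA of mouse brain was sequenced in 17 libraries, 6 transgene and 11 control, grouped by the labels' treatment field. The authors deposited raw counts per transcript, 68517 rows a library, with mm10 as genome build per the submitters' processing notes. Aligner, counter, annotation and strand setting: not given in the sources used here. Library sizes and tests left out the 5 last rows, which name no feature. Reads fitting several features made up 41.1% ± 0.82 (SD, n = 11) of a library in controls and 42.1% ± 0.84 (n = 6) in transgene libraries, and reads on no feature 8.98% ± 1.41 and 7.44% ± 1.43. Genes with several overlapping transcripts thus lost reads, and 17 of the 36 genes had several rows. Rows were matched to GENCODE M21 (64380 of 64505 Ensembl rows) and summed per gene. Unmatched and assembled-locus rows stayed as features, 45147 in all.

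Tests used edgeR 4.0.16 in R 4.3.3 (TMM, default filter, quasi-likelihood F test, Benjamini-Hochberg over all tested features, threshold 0.05), and the procedure was tested on simulated data. Standard errors come from the F statistic. Alternatives were library-size and RLE scaling, DESeq2 1.42.0, limma-voom (limma 3.58.1), other filters, the largest row per gene, a lane and flow cell factor, and left-out libraries. Intervals are exact and cover counting error only.

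The 36 genes, their roles and all lists were chosen with earlier results of these data known. All 36 genes are named, those past the filter with lowest, median and highest CPM per group, and up to 3 genes of another list by mean CPM. No pair of libraries of a group agreed within counting noise, with a chi-square statistic per gene of at least 9.97.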

Additional observations from a re-analysis of the deposited data

Results flagged for a closer look

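In 62 groups of 6 libraries (31 genes, for the transgene group and for the controls of lane 8), 9 had a highest or lowest library whose gap to the next was over 0.625 of the group's range. About 1 in 20 groups would be marked by chance if values were continuous, normally distributed and independent. Here the groups share libraries, and some values are tied at 0 counts, so the 9 cannot be set against that rate. On the log2 CPM scale with a prior count of 2, Lmx1b stood at 1.60 in transgene 1, above the other transgene libraries. Lbx1 at 1.96 and Tlx3 at 2.28 stood apart in transgene 3. Evx1 was at -1.45 in transgene 1, where the other 5 transgene libraries had 0 counts, and Evx2 at -2.75 in transgene 2, where its only read lay. The other 4 were low values of control 3 among the lane 8 controls: Phox2a at -1.87, Evx2 at -1.36, Gata3 at -2.66 and Onecut3 at -2.21.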

How the results depend on the processing

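Over all libraries 22 to 26 of the 36 genes were called lower under each alternative, with 23 to 26 on leaving out each library in turn. Within lane 4 the count was 18 to 24, and 19 to 20 on leaving out each library, beside 3712 to 4863 of all features called in either direction. The genes behind this count changed. Without control 8, En2, Barhl1, Barhl2 and Lhx1 lost their lane 4 calls and Onecut3 gained one, as did Pax8 and Isl2, which then passed the filter. Over all libraries but control 7 and transgene 3, Sall3 was the only gene called higher (0.77, adjusted p = 0.0479). Of the tested genes, 7 passed the filter through the controls alone, and 20 of the 23 called had fewer than 6 transgene libraries above the cutoff. With scaling by library size the median of all features moved from -0.05 to -0.16, and the share of higher calls from 48.6% to 35.6%. With the lane and the flow cell in the model, 5887 instead of 9078 features were called and 23 of the 36 genes. Since all transgene libraries are in lane 4, that fit takes its contrast from the lane 4 libraries and is no separate check. The cause of these shifts in the counts was not tested.

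Directions turned only in genes that were not called. Over all libraries Sall3 was at -0.24 with the lane factor, a fit whose contrast comes from lane 4. Pax7 was at 0.27 without control 7 and transgene 3 and between -0.87 and 0.43 on leaving out each library. Within lane 4, Pax7 and Sall3 were both at 0.04 without those libraries, and ranged from -1.16 to 0.49 and from -0.68 to 0.13 on leaving out each. For controls by lane, Pax5 was at -0.37 with limma-voom, and the ranges on leaving out each library were -0.32 to 0.95 for Pax5, -1.04 to 0.74 for Pax7, -0.09 to 0.75 for Pax3, -0.18 to 0.62 for Tlx3, -0.33 to 0.13 for Gata2, -0.71 to 0.06 for Gata3, -0.56 to 0.10 for Ebf3 and -0.23 to 0.02 for Irx1. There, 0 to 1 of the 36 genes and 0 to 88 features were called on leaving out each library, and DESeq2 called 1 feature. Within lane 4, calls were also lost with DESeq2 for Tlx3, Barhl1 and Irx2 (log2 fold changes -4.70, -2.95 and -3.62, adjusted p = 0.0608, 0.0642 and 0.0582), with limma-voom for Barhl2 (0.254), and without control 7 and transgene 3 for Ebf3, Irx2 and Irx5 (0.0572, 0.0937 and 0.054). Calls were gained there for Pax5 (DESeq2 0.0342, limma-voom 0.019), Onecut3 (DESeq2 0.0364), Pou4f1 (limma-voom 0.0414) and Gata3 (limma-voom 0.0174). The median spread of 0.421 among controls was 0.431 with library-size scaling and 0.425 with the largest row per gene.

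No paired analysis was possible because the labels give no replicate numbers that the groups share, and the numbers used here follow the order of deposition. For genes under about 1 CPM, few counts limit the precision of the fold change.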
